A study of Rattus norvegicus with 6 samples.

Results

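The genes described here encode the coats, small GTPases and tethers that carry proteins between the endoplasmic reticulum (ER) and the Golgi, together with the clathrin adaptor subunits. A rule on gene symbols picks them out, and the gene groups themselves were proposed with earlier results of these data known: subunits of the COPI and COPII coats, Tmed proteins, golgins and Gorasp proteins, ER-Golgi SNAREs, ARF and ARL GTPases with proteins named after them, Arfgap proteins, and subunits of the adaptors AP-1 to AP-4. The rule found 78 of the 10411 genes named on the array, and the probe set whose log2 signal was highest on average over the 6 arrays stood for each gene. The cells were AR42J, an acinar tumour line from rat pancreas. Cells revived at passage 29 for each experiment were plated for 24 h in 20% serum and then kept for 48 h in 5% serum, either with 100 nM dexamethasone (n = 3 cultures) or with no addition (control, n = 3). Dexamethasone is a synthetic glucocorticoid, and the comparison asks how it changed expression in these cells. Total RNA of each culture was hybridised to 1 Affymetrix Rat 230A array, and the series describes the cultures as 3 independent pairs. The data come from 1 cell line at 1 dose and 1 time.

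An acinar cell makes and exports large amounts of digestive enzyme, and the cargo leaves the ER in vesicles coated with COPII. Sar1 GTPases start the coat, Sec23 and Sec24 form its inner layer and select cargo, Sec13 and Sec31 form the outer cage, and Sec16 marks the exit sites. COPI, recruited by ARF GTPases, returns material from the Golgi to the ER. Golgins and SNAREs tether and fuse the vesicles, and adaptors AP-1 to AP-4 sort cargo at the trans-Golgi, the plasma membrane and endosomes.

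Signals are MAS5 values, 1 per probe set and array on a linear scale, and each array had a trimmed mean of about 500. Signals of different probe sets are not comparable as amounts of RNA. On each array, 68.3% to 79.5% of probe sets exceeded a background level, chosen after the values were seen. This level was the brightest of 27 probe sets for Bacillus control genes, and it ranged from 83.7 to 115.9 on dexamethasone arrays and from 51.7 to 97.3 on control arrays. On the second principal component (10.0% of the variance), dexamethasone replicate 3 had a score of -25.3, while dexamethasone replicates 1 and 2 had scores of 11.6 and 12.6. All 18 acinar markers on the array were above background on all 6 arrays, and their summed signal was 157895 to 187893 with dexamethasone and 93497 to 120994 in control. The summed signal of 7 duct markers was 1696 to 3031 with dexamethasone and 4695 to 5880 in control, and that of 9 hepatocyte markers 10246 to 34270 with dexamethasone and 1462 to 3792 in control. Such sums follow the brightest probe sets. Among markers bright enough to be tested, limma called 11 of 16 acinar and 5 of 6 hepatocyte markers higher and 4 of 5 duct markers lower. Of the hepatocyte markers called higher, Tat and Hpd averaged 23.5 and 73.4 in control, below the signal needed for testing. They were bright enough to be tested mainly through the treated group, so the filter favoured these calls. Apob (log2 change 0.11) and the duct marker Muc1 (0.09) did not pass. Alb, Cps1, Fgb, Car2 and Spp1 were too dim to be tested. Of 12 islet markers, 3 were above background on all arrays, and their sums were 6505 to 10021 with dexamethasone and 6457 to 6834 in control; Gcg, Iapp, Pdx1 and Slc2a2 were above background on no array. Of 17 stromal, endothelial and immune markers, 6 were above background on all arrays, with sums of 1890 to 2112 with dexamethasone and 1677 to 1817 in control; Vim, Ptprc, Kdr, Lum and Cd3d were above background on no array. The part of these markers in the results below was not tested.

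With dexamethasone, 8 coat and ARF genes rose, 12 fell and 53 did not pass, out of 73 bright enough to be tested. The largest rises were in Tmed3, a cargo-binding p24 protein, at 1.91-fold and Bet1, an ER-Golgi SNARE, at 1.86-fold. Among the falls, Arl6ip1, an ER-shaping protein, was at 0.463 of control. Arl6, a GTPase of the primary cilium, was fitted at 0.414 of control, with a treated mean below the filter signal and 1 treated array below background, so that its size is uncertain. Calls are from limma with the replicate pair as a block and a Benjamini-Hochberg adjusted p under 0.05 over all 9520 probe sets tested. Across all 7051 genes tested, 38.4% were called (17.0% higher and 21.4% lower), against 27.4% of the coat and ARF genes (10.96% higher and 16.4% lower). The median absolute log2 change was 0.21 over these genes and 0.35 over all genes. Of the 73, 2 (2.74%) changed by 2-fold or more, and 12.03% of all genes did. The median signed change was 0.01, and -0.04 over all genes. The split depended on array scaling: 13 rose and 6 fell with 75th percentile centring of the arrays, and 3 rose and 20 fell with scaling to the hybridization controls. The split of all 7051 genes shifted too. With the centring 1582 of them rose and 1116 fell (median 0.08), and with the scaling 623 rose and 2434 fell (median -0.29). In bulk RNA, fewer cells that express a gene and less RNA per cell cannot be told apart.

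**Figure D1:**
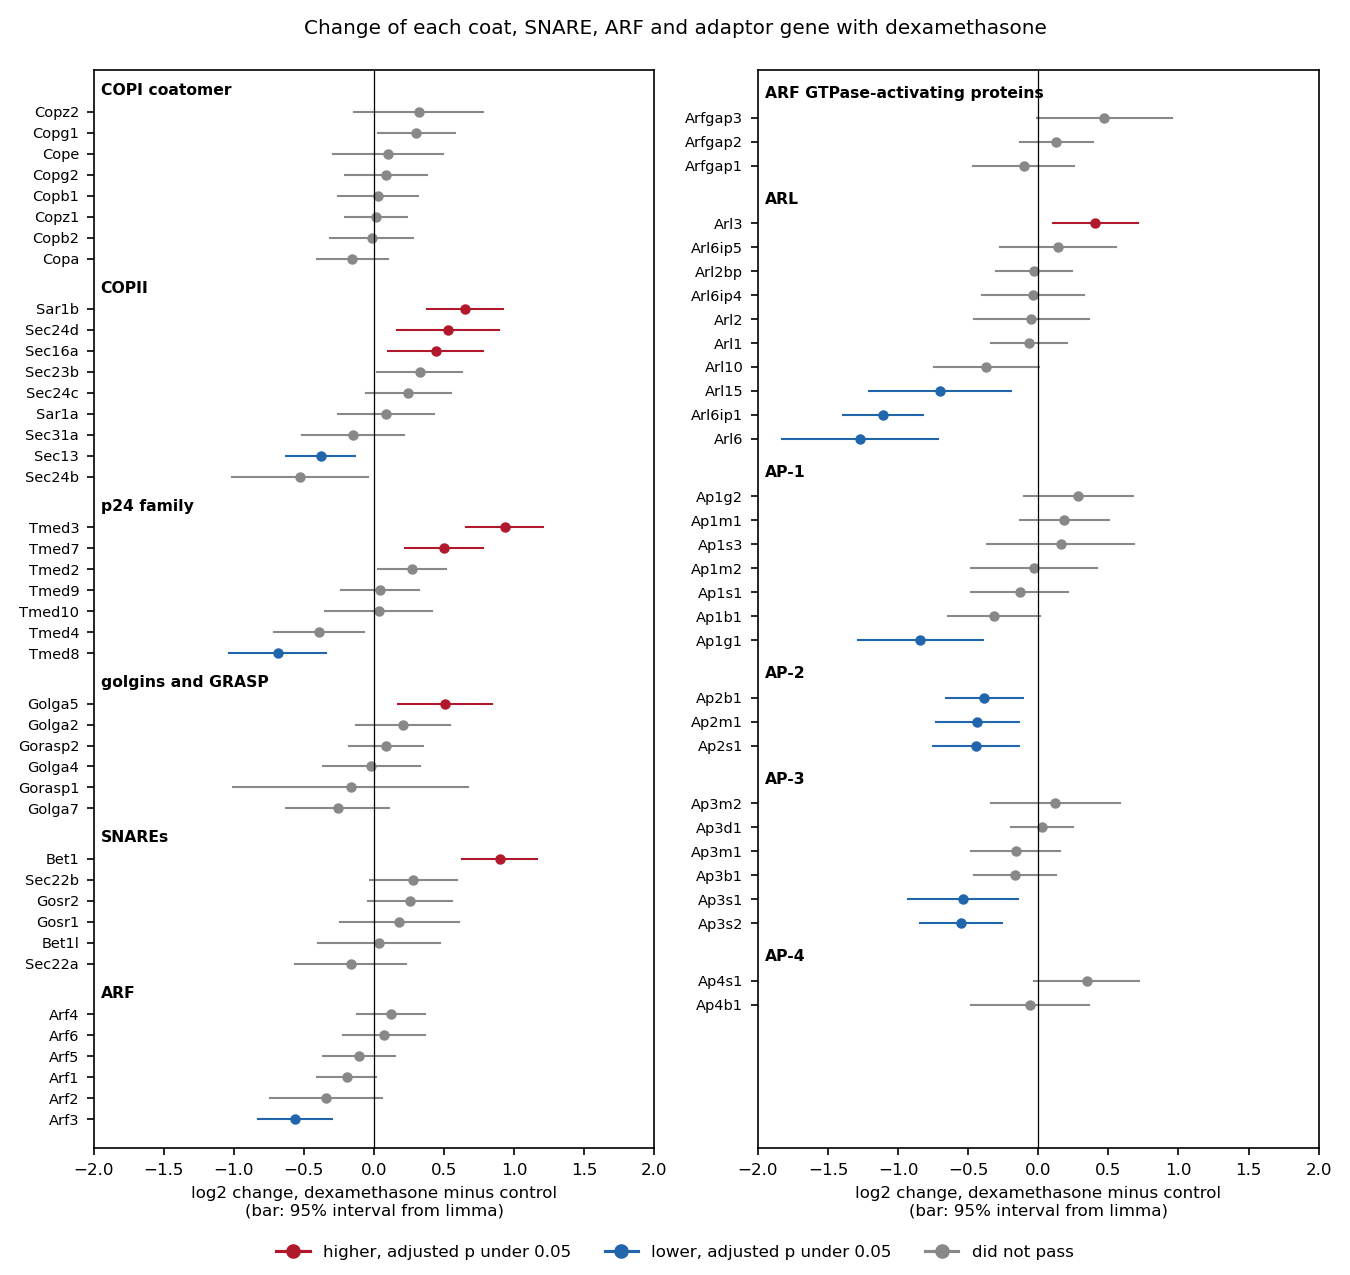
Log2 change (dexamethasone minus control) of the 73 tested genes, grouped by role, with the 95% interval from limma as a bar; red genes were higher, blue genes lower, and grey genes did not pass an adjusted p of 0.05. The 8 coatomer genes lie near 0, the 3 AP-2 genes all lie to the left, and Tmed3 and Bet1 lie farthest to the right.

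**Figure D2:**
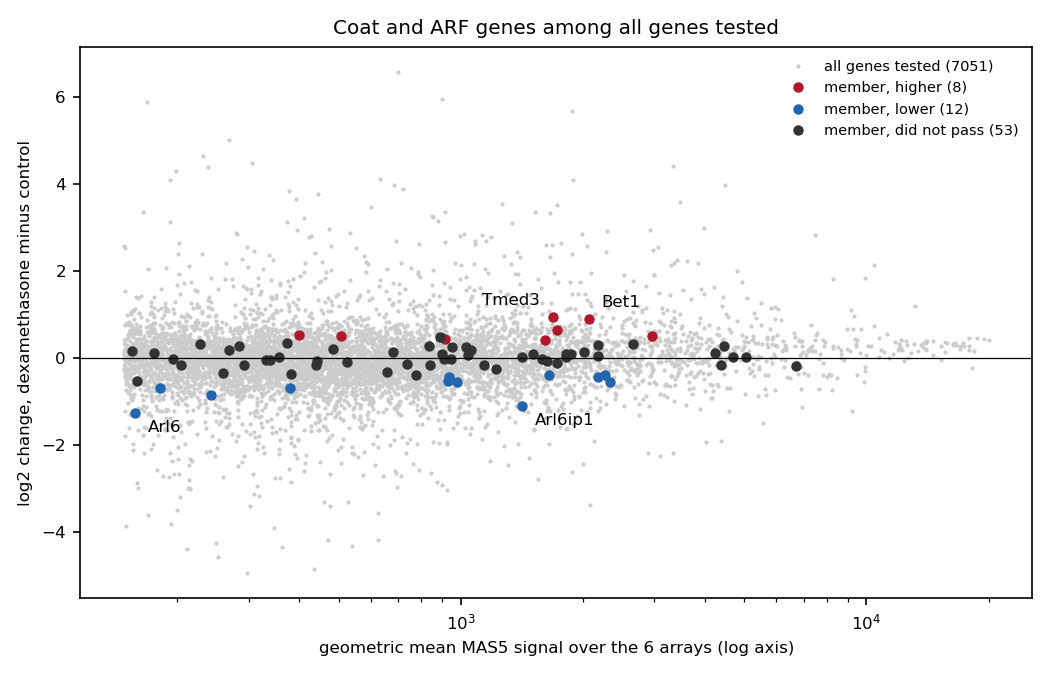
Log2 change (dexamethasone minus control) against the geometric mean MAS5 signal over the 6 arrays (log axis) for all 7051 genes tested (light grey) and the 73 coat and ARF genes (coloured by call). The coat and ARF genes span -1.27 to 0.93, inside the span of all genes, -4.95 to 6.57.

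When all genes were split by signal into 4 bins of equal size, 30 of the 73 lay in the brightest bin, where 10 were called and 49.6% of all genes were called. In the dimmest bin (signals of 147.6 to 293.4), 3 of 13 were called, and 26.0% of all genes. The median absolute change of these genes was below that of all genes in each bin, at 0.18 for these genes and 0.35 for all genes in the brightest bin, and 0.28 for these genes and 0.34 for all genes in the dimmest. Of the 73, the 2 groups did not overlap on the linear scale for 26 (51.0% of all genes). Of the tested genes, 4 had a group mean below the filter signal of 147.6, so that they passed mainly through the other group: Arl6, Arl15 and Sec24b in treated cells and Ap1s3 in control cells.

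For 3 genes with large changes and bright signals (Tmed3, Bet1 and Arl6ip1) and 2 called genes with a match to a response element (Sec16a and Ap2b1), the 250 bases before the start that RefSeq annotates are shown, from rat assembly GRCr8, 5′ to 3′ on the gene's strand, with motif matches in capitals. These are Tmed3 (chr8:99129278-99129527, minus strand), Bet1 (chr4:33081163-33081412, minus strand), Arl6ip1 (chr1:181874233-181874482, minus strand), Sec16a (chr3:29662320-29662569, minus strand) and Ap2b1 (chr10:68600473-68600722, plus strand). Capitals mark the CCAAT box in Tmed3 and Arl6ip1 (none in Bet1), the core of the unfolded protein response element in Sec16a and the cAMP response element in Ap2b1.
Tmed3: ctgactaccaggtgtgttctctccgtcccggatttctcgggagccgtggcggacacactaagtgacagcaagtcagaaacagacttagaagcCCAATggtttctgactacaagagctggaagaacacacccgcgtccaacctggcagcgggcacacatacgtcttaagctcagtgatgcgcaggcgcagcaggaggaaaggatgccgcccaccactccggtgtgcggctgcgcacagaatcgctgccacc
Bet1: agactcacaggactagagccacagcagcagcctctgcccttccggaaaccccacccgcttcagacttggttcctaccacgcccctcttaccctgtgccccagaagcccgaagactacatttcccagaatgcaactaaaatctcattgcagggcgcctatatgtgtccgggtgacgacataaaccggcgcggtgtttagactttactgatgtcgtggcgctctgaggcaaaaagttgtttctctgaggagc
Arl6ip1: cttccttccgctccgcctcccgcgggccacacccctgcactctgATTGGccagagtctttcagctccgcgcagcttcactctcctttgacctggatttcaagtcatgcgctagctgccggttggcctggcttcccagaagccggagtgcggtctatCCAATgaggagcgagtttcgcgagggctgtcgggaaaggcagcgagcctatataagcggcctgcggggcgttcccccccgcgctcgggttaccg
Sec16a: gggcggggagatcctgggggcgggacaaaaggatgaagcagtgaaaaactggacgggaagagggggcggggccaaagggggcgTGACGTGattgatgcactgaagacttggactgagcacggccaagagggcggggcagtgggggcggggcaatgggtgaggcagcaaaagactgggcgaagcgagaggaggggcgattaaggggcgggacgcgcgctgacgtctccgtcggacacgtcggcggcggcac
Ap2b1: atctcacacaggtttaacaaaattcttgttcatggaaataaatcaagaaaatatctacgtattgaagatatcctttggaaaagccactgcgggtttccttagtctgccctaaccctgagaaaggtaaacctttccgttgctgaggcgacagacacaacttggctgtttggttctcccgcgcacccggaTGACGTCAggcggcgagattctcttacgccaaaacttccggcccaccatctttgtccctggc

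Upstream sequences were found in the RefSeq table for 69 of the 78 genes and for 5936 of the tested genes, and were searched on both strands. CCAAT, the box bound by NF-Y, was in 40.6% of the 69 and in 36.7% of all tested genes. Among called genes it was in 2 of 6 risers with a sequence (Sar1b and Tmed3) and in 3 of 12 fallers (Arl6, Arl6ip1 and Arl15). TGACGTG, the core of an element bound by factors of the unfolded protein response, was in 5.80% (Copb2, Sec16a, Arf1 and Arf4), against 2.31% of all genes. TGACGTCA, the cAMP response element, which shares its start with TGACGTG, was in 4.35% (Cope, Arfgap2 and Ap2b1), against 2.95%. The ER stress response element, which contains the CCAAT box, was in none of the 69 and in 0.236% of all genes. The glucocorticoid response element was also in none of the 69 and in 0.168% of all genes, and the NRF1 site was in Arfgap3 only, against 1.99%. Base composition differed little, with a median GC content of 61.6% in the 69 and 60.8% in all genes.

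Of 10 COPII genes on the array, 3 rose, 1 fell, 5 did not pass and Sec16b was too dim to be tested. The 4 calls are 44.4% of the 9 tested, near the 38.4% of all genes, and 3 of them (Sec16a, Sec24d and Sec13) were lost when single replicate pairs were left out. Sar1b, one of a pair of GTPases that start the coat and the one needed in humans for chylomicron export from the gut, had signals of 2225, 2464 and 1839 with dexamethasone, against 1355, 1469 and 1314 in control. All treated arrays lay above all control arrays (log2 change 0.65 ± 0.12 SE, adjusted p = 0.00324 by limma). Its paralogue Sar1a averaged 1558 ± 214 with dexamethasone and 1463 ± 143 in control (SD, n = 3 each), a log2 change of 0.09 with a 95% interval of -0.26 to 0.43, and its other probe set stood at -0.07. The difference between the changes of Sar1b and Sar1a was 0.56 ± 0.46 (SD over 3 pairs), positive in 3 of 3 pairs, with p = 0.25 by a two-sided exact sign-flip test, the smallest p that 3 pairs allow, and 0.417 adjusted over 10 paralogue pairs compared.

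Sec24d, a cargo-selecting subunit of the inner coat, had signals of 534.4, 553.0 and 369.7 with dexamethasone, against 314.7, 416.5 and 279.7 in control. Its groups overlapped, since dexamethasone replicate 3 lay below control replicate 2, but each treated array was above its paired control (0.53 ± 0.16, adjusted p = 0.0312 by limma). Sec24c and Sec24b, related cargo-selecting subunits, had changes of 0.24 ± 0.13 and -0.53 ± 0.21, neither of which passed. Sec16a, the scaffold of ER exit sites whose upstream sequence is shown above, had signals of 1149, 868.8 and 1199 with dexamethasone, against 842.5, 785.3 and 727.5 in control. The groups did not overlap, although dexamethasone replicate 2 was only just above the highest control (0.44 ± 0.15, adjusted p = 0.0470 by limma). Sec13, a cage subunit that also belongs to the nuclear pore, averaged 1989 ± 76 with dexamethasone and 2592 ± 57 in control (-0.38 ± 0.11, adjusted p = 0.0240 by limma), whereas its cage partner Sec31a had a change of -0.15 ± 0.16. Sec23b, of the inner coat, had a change of 0.32 ± 0.13 (adjusted p = 0.0873 by limma). The Sec16a call was lost without replicate 1 (0.43, adjusted p = 0.131) or 3 (0.30, adjusted p = 0.271), the Sec24d call without replicate 1 (0.41, adjusted p = 0.161) or 2 (0.58, adjusted p = 0.0705) and with no replicate block (adjusted p = 0.0734), and the Sec13 call without replicate 1 (-0.40), 2 (-0.39) or 3 (-0.35, adjusted p = 0.113). Scaling to the hybridization controls also ended the Sec16a (0.19) and Sec24d (0.28) calls, and 75th percentile centring that of Sec13 (-0.26).

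None of the 8 COPI coatomer genes passed the test, against 38.4% of all genes. In other settings, Copa was called lower with quantile normalization (-0.34) and hybridization control scaling (-0.40). Copg1 was called higher with 75th percentile centring (0.42) and with the mean of its probe sets (0.45). The changes of the 8 genes ran from -0.16 (Copa) to 0.32 (Copz2), and their 95% intervals lay between -0.41 and 0.78. Copz1, the zeta subunit, had signals of 5665, 4745 and 4850 with dexamethasone, against 5513, 5032 and 4585 in control. The groups overlapped throughout (0.01 ± 0.10, 95% interval -0.21 to 0.23). Copb1 and Copb2, the beta subunits, had changes of 0.03 ± 0.13 and -0.02 ± 0.13. Copg1, a gamma subunit, had a change of 0.30 ± 0.12 with no overlap between groups (adjusted p = 0.0841 by limma). Its other probe set did pass, at 2440 ± 294 with dexamethasone and 1622 ± 262 in control (0.59 ± 0.16, adjusted p = 0.0171 by limma). Arcn1, the delta subunit, which the rule leaves out by its symbol and which was looked up after the values were seen, had a change of -0.11 ± 0.12.

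Most genes named Tmed encode p24 proteins, transmembrane proteins that bind cargo and coat in early secretory vesicles. Tmed8 is grouped with them here by its symbol and a shared domain. In this group Tmed3 and Tmed7 rose, Tmed8 fell, 4 did not pass and Tmed1 was too dim to be tested. The 3 calls, with Tmed8 as the only fall, are 42.9% of the 7 tested, near the 38.4% of all genes. Tmed3 had signals of 2790, 2225 and 2029 with dexamethasone, against 1321, 1297 and 1059 in control. Every treated array was well above every control array (0.93 ± 0.12, adjusted p = 0.000457 by limma). Tmed7 had signals of 3533, 3436 and 3602 with dexamethasone, against 2110, 2863 and 2550 in control. The groups did not overlap, and the change was largest in replicate pair 1 (0.50 ± 0.12, adjusted p = 0.0123 by limma). The call of Tmed7 was lost without replicate 1 (0.38, adjusted p = 0.0731), with hybridization control scaling (0.26) and with the mean of its probe sets (0.31), and a second probe set of it did not pass (0.11 ± 0.16).

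Tmed8, which shares a Golgi dynamics domain with this family, had signals of 306.5, 259.7 and 333.5 with dexamethasone, against 497.6, 423.3 and 527.9 in control. All treated arrays lay below all control arrays (-0.69 ± 0.15, adjusted p = 0.00776 by limma), with a change of -0.70, -0.70 and -0.66 in the 3 pairs. Tmed2, a widely expressed p24 protein, averaged 4892 ± 283 with dexamethasone and 4062 ± 458 in control (0.27 ± 0.11, adjusted p = 0.0761 by limma). Its other probe set passed, at 4322 ± 366 with dexamethasone and 3362 ± 162 in control (0.36 ± 0.11, adjusted p = 0.0308 by limma). Tmed4 had a change of -0.39 ± 0.14 with no overlap between groups (adjusted p = 0.0565 by limma). Tmed10 and Tmed9 had changes of 0.03 ± 0.17 and 0.04 ± 0.12. Tmed1 had signals of 32.5, 25.0 and 13.3 with dexamethasone, against 166.7, 132.6 and 191.1 in control. It was above background on all control arrays and on no treated array, at least 1.63-fold lower with dexamethasone, where each dim signal is set at the array's background level. With no filter on dim probe sets it passed (adjusted p = 0.00386 by limma).

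SNAREs drive membrane fusion. Of 6 genes grouped here by symbol as ER-Golgi SNAREs, only Bet1 passed (16.7%, against 38.4% of all genes). Bet1 had signals of 3074, 2315 and 3179 with dexamethasone, against 1630, 1397 and 1545 in control. The lowest treated array was well above the highest control array (0.90 ± 0.12, adjusted p = 0.000498 by limma). Its other probe set rose by 1.05 ± 0.16 (adjusted p = 0.00135 by limma). The related Bet1l had a change of 0.03 ± 0.19. The other probe set of Bet1l did not pass, at 0.31 ± 0.18 with no overlap between groups (adjusted p = 0.215 by limma). With the brightest probe sets, the changes of Bet1 and Bet1l differed by 0.86 ± 0.27 (SD over 3 pairs, positive in 3 of 3, p = 0.25 by the exact sign-flip test). Sec22b, Gosr2 and Gosr1, which act with Bet1 in early secretory fusion, had changes of 0.28 ± 0.14, 0.26 ± 0.13 and 0.18 ± 0.19. Sec22a had the only negative change of the group, -0.17, and did not pass. The other probe set of Gosr2 passed, at 412.8 ± 29.6 with dexamethasone and 293.8 ± 30.97 in control (0.49 ± 0.16, adjusted p = 0.0380 by limma).

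Golgins tether vesicles, and Gorasp proteins hold Golgi stacks together. Of 4 genes named Golga and 2 named Gorasp, only Golga5 passed (16.7%, against 38.4% of all genes). Golga5 (golgin-84) had signals of 599.1, 541.5 and 678.8 with dexamethasone, against 474.6, 361.9 and 448.4 in control. The groups did not overlap (0.51 ± 0.15, adjusted p = 0.0262 by limma). The call was lost without replicate 2 (0.47, adjusted p = 0.1001) or 3 (0.46, adjusted p = 0.116) and with hybridization control scaling (0.26, adjusted p = 0.217). Golga2 (GM130), a cis-Golgi golgin, had a change of 0.21 ± 0.15, Golga4 and Golga7 had changes of -0.019 and -0.26, and Gorasp2 one of 0.09 ± 0.12. Gorasp1 had signals of 169.2, 261.0 and 161.5 with dexamethasone, against 297.8, 116.6 and 291.2 in control. It was higher with dexamethasone in replicate pair 2 only, and its change of -0.17 ± 0.37 became -0.83 (adjusted p = 0.0335) without that pair.

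**Figure D3:**
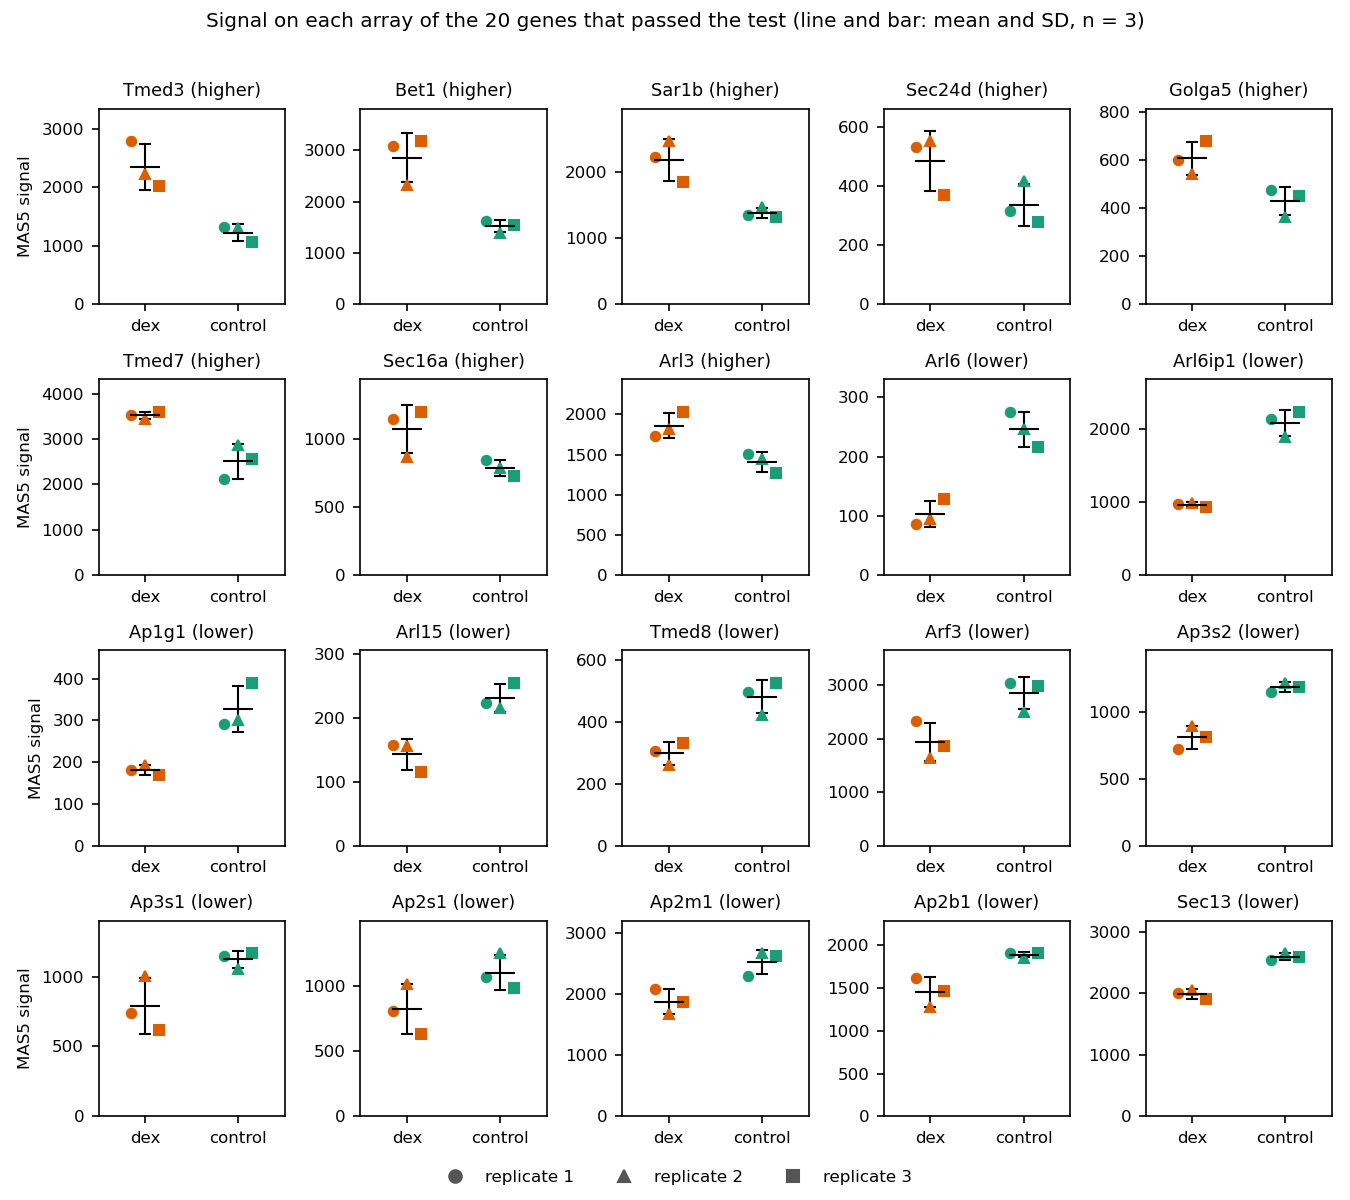
MAS5 signal on each array (linear axis from 0) of the 20 genes that passed the test, with dexamethasone left and control right, 1 marker shape per replicate number, and the mean with its SD (n = 3) as a line and bar. The groups overlap for Sec24d and Ap2s1 and for none of the other 18.

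ARF GTPases recruit coats to membranes, and of 6 on the array only Arf3 passed (16.7%, against 38.4% of all genes). Arf3, of the Golgi and trans-Golgi, had signals of 2329, 1632 and 1864 with dexamethasone, against 3047, 2506 and 2992 in control. All treated arrays lay below all control arrays (-0.56 ± 0.12, adjusted p = 0.00551 by limma), and the other probe set fell by the same amount (-0.57 ± 0.15, adjusted p = 0.0165 by limma). Arf1, which recruits COPI, averaged 6280 ± 456 with dexamethasone and 7190 ± 602 in control (-0.19 ± 0.09, adjusted p = 0.135 by limma). It passed and was lower with quantile normalization (-0.40) and hybridization control scaling (-0.44). Arf2, Arf4, Arf5 and Arf6, the last a GTPase of the plasma membrane, had changes of -0.35, 0.12, -0.11 and 0.07.

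The 3 Arfgap genes, which stimulate hydrolysis of GTP by ARF, did not pass with their brightest probe sets, against 38.4% of all genes called. Arfgap2, which acts on COPI vesicles, had signals of 2116, 1982 and 2199 with dexamethasone, against 1857, 1987 and 1919 in control (0.13 ± 0.12). The groups overlapped because dexamethasone replicate 2 was just below control replicate 2. Probe sets of Arfgap1 disagreed: the brightest had a change of -0.10 ± 0.16, while the others fell by 0.59 ± 0.16 (adjusted p = 0.0187 by limma) and 0.83 ± 0.16 (adjusted p = 0.00450 by limma). The probe set with the larger fall averaged 271.4 ± 48.9 with dexamethasone and 477.9 ± 20.9 in control. Arfgap3 had a change of 0.47 ± 0.21 and passed without replicate 3 (0.73, adjusted p = 0.00186).

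Of 12 ARL genes and genes named after ARL partners, 1 rose, 3 fell, 6 did not pass, and Arl11 and Arl6ip6 were too dim to be tested. The 4 calls among the 10 tested are near the 38.4% of all genes, of which 17.0% were called higher and 21.4% lower. Most of these do not belong to ER-Golgi coats. Arl6, which recruits the BBSome to ciliary membranes, had signals of 86.5, 94.8 and 127.7 with dexamethasone, against 275.6, 246.5 and 216.9 in control. The groups were well apart, with 2 of 3 treated arrays above background (-1.27 ± 0.25, adjusted p = 0.00400 by limma). Arl6ip1, which shapes ER tubules and was found through its binding to ARL6, had signals of 979.3, 986.9 and 929.5 with dexamethasone, against 2139, 1887 and 2238 in control. The 3 treated signals lay close together, far below all control signals (-1.11 ± 0.13, adjusted p = 0.000209 by limma). Arl15 had signals of 158.6, 155.7 and 115.8 with dexamethasone, against 223.3, 215.7 and 255.8 in control (-0.70 ± 0.22, adjusted p = 0.0364 by limma). The groups did not overlap, but its call was lost without replicate 1 (-0.81, adjusted p = 0.0839), 2 (-0.82, adjusted p = 0.0687) or 3 (-0.48, adjusted p = 0.225).

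Arl3, which releases lipid-modified cargo in cilia, rose to 1862 ± 154 with dexamethasone, against 1406 ± 122 in control (0.41 ± 0.13, adjusted p = 0.0406 by limma). Its call was lost without replicate 2 (0.44, adjusted p = 0.109) or 3 (0.27, adjusted p = 0.273) and with hybridization control scaling (0.16, adjusted p = 0.401). Arl1, which recruits golgins to the trans-Golgi, had a change of -0.07 ± 0.12, and Arl2, a regulator of tubulin folding, one of -0.05 ± 0.18. Arl2bp, Arl6ip4 and Arl6ip5, named after GTPases they bind, had changes of -0.03, -0.04 and 0.14, and Arl10 had a change of -0.37 ± 0.17 (adjusted p = 0.114 by limma).

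Of 4 measured subunits of AP-2, the clathrin adaptor of endocytosis at the plasma membrane, the 3 that the symbol rule takes in fell and Ap2a2 did not pass. Over all genes, 21.4% were called lower. Ap2s1, the small subunit, had signals of 808.1, 1013 and 631.3 with dexamethasone, against 1065, 1246 and 981.4 in control. Each treated array was below its paired control, but the groups overlapped (-0.44 ± 0.13, adjusted p = 0.0305 by limma). Ap2m1, the cargo-binding medium subunit, averaged 1878 ± 206 with dexamethasone and 2533 ± 200 in control (-0.43 ± 0.13, adjusted p = 0.0305 by limma). Ap2b1, the beta subunit shown above with its cAMP response element, averaged 1450 ± 171 with dexamethasone and 1884 ± 28 in control (-0.38 ± 0.12, adjusted p = 0.0354 by limma), and its other probe set fell by 0.70 ± 0.14 (adjusted p = 0.00464 by limma). Ap2a2, an alpha subunit that the rule leaves out, was looked up after the values were seen and had a change of -0.28 ± 0.16 (adjusted p = 0.198 by limma). The calls of Ap2s1, Ap2m1 and Ap2b1 were all lost with 75th percentile centring (-0.32 for Ap2s1, -0.31 for Ap2m1 and -0.26 for Ap2b1), without the intensity trend, without replicate 2 (-0.52, -0.32 and -0.31) and without replicate 3 (-0.35, -0.41 and -0.38). That of Ap2s1 was also lost without replicate 1 (-0.47, adjusted p = 0.0757) and with no replicate block (adjusted p = 0.0795).

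Of 7 AP-1 subunits, which sort cargo with clathrin at the trans-Golgi, only Ap1g1 passed (14.3%, against 38.4% of all genes). Ap1g1, the gamma subunit, had signals of 180.1, 193.6 and 170.2 with dexamethasone, against 292.0, 299.7 and 390.2 in control. All treated arrays lay below all control arrays, and control replicate 3 was the highest (-0.84 ± 0.20, adjusted p = 0.00976 by limma). Its paralogue Ap1g2 had a change of 0.28 ± 0.17, and the difference between them was -1.13 ± 0.28 (SD over 3 pairs, negative in 3 of 3; exact p = 0.25). Ap1b1, the beta subunit, had a change of -0.31 ± 0.14, and the medium subunit Ap1m1 one of 0.18 ± 0.14. Ap1m2, Ap1s1 and Ap1s3 lay between -0.13 and 0.16. Without replicate 3 the change of Ap1g1 was -0.66 (adjusted p = 0.0551).

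AP-3 carries cargo to lysosome-related organelles, and both of its small subunits fell while the 4 other tested subunits did not pass. The 2 calls are 33.3% of the 6 tested, near the 38.4% of all genes. Ap3s2 had signals of 724.3, 894.8 and 817.6 with dexamethasone, against 1150, 1222 and 1190 in control. All treated arrays lay below all control arrays (-0.55 ± 0.13, adjusted p = 0.00981 by limma). Ap3s1 had signals of 739.4, 1006 and 619.8 with dexamethasone, against 1148, 1053 and 1166 in control. The groups did not overlap, but replicate pair 2 differed by only -0.07 (-0.54 ± 0.17, adjusted p = 0.0382 by limma), and the call was lost without replicate 1 (-0.49, adjusted p = 0.140) or 3 (-0.35, adjusted p = 0.175). Ap3d1, the delta subunit, had a change of 0.03 ± 0.10, and Ap3b1 and Ap3m1 changes of -0.16 ± 0.13 and -0.16 ± 0.14. Ap3b2 was too dim to be tested. Of AP-4, which exports cargo from the trans-Golgi without clathrin, Ap4b1 had signals of 404.6, 358.7 and 558.2 with dexamethasone, against 579.8, 343.3 and 460.4 in control. These overlapped fully (-0.06 ± 0.19), and Ap4s1 had a change of 0.34 ± 0.16 (adjusted p = 0.135 by limma).

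**Figure D4:**
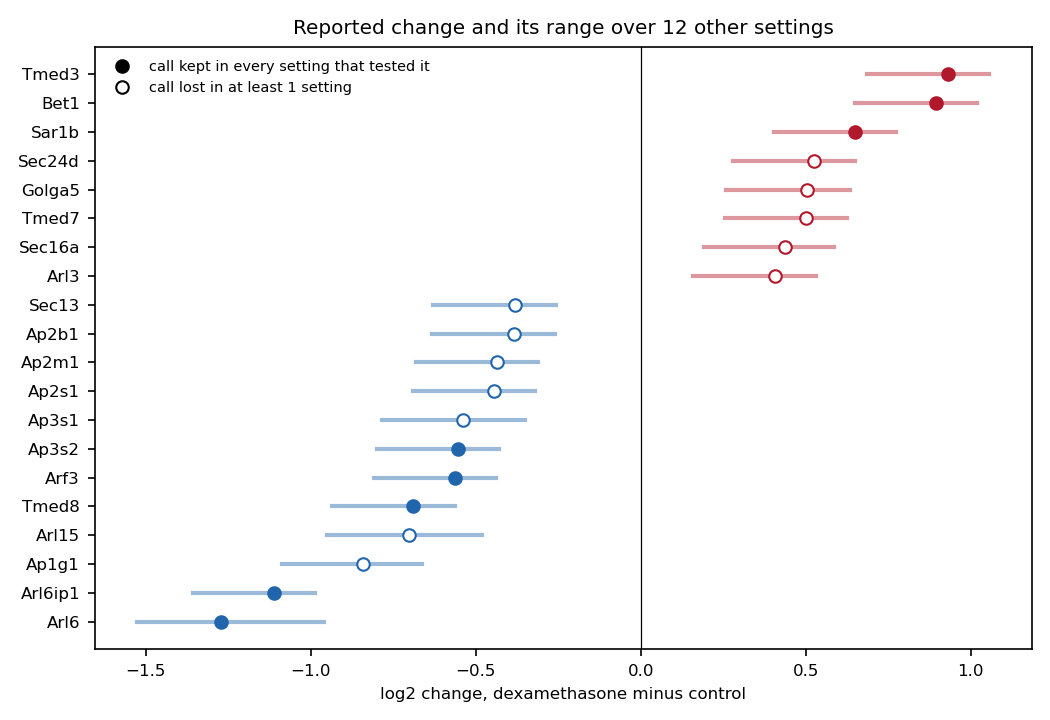
Log2 change (dexamethasone minus control) of the 20 genes that passed (circle) with its range over 12 other settings (line); filled circles kept their call in every setting that tested them, and open circles lost it in at least 1. The 8 filled genes are Tmed3, Bet1, Sar1b, Ap3s2, Arf3, Tmed8, Arl6ip1 and Arl6, and no line crosses 0.

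Other genes of ER-Golgi and adaptor traffic were taken from a list of 155 names (aliases included), of which 118 were on the array and 104 were tested. Of these, 16 rose, 11 fell and 77 did not pass, so 26.0% were called, against 38.4% of all genes, and their median change was 0.03. With 75th percentile centring 28 rose and 9 fell, and with hybridization control scaling 5 rose and 22 fell. Under these settings the split of all genes shifted too, as given above. Among cargo receptors, 3 of 19 rose and 3 fell (31.6% called, against 38.4% of all genes). Mcfd2, which with Lman1 exports clotting factors from the ER, had signals of 4313, 3700 and 3099 with dexamethasone, against 1241, 1750 and 1290 in control. Its lowest treated array was far above the highest control (1.38 ± 0.15, adjusted p = 0.000159 by limma), whereas Lman1 had a change of 0.48 ± 0.19 (adjusted p = 0.0776 by limma). Mia2, which with Mia3 helps bulky cargo enter COPII carriers, rose to 1555 ± 85 with dexamethasone, against 772.3 ± 81.0 in control (1.01 ± 0.14, adjusted p = 0.000554 by limma), and Mia3 rose by 0.74 ± 0.14.

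Cnih2 and Cnih4, members of the cornichon family of cargo receptors, fell, Cnih4 by 1.01 ± 0.17. Cnih2 had signals of 63.4, 123.7 and 94.3 with dexamethasone, against 279.8, 287.8 and 282.1 in control. Since 1 of 3 treated arrays was above background and the treated mean was below the filter signal, the fitted change of -1.65 ± 0.24 is uncertain in size. Kdelr3, a retrieval receptor for ER residents, fell to 291.5 ± 29.3 with dexamethasone, against 510.3 ± 55.5 in control (-0.81 ± 0.15), while the changes of Kdelr1 and Kdelr2 were 0.13 ± 0.11 and 0.11 ± 0.12. Among 14 other ARF GTPase-activating proteins and effectors, 1 rose and 5 fell. These calls are 42.9% of the 14, near the 38.4% of all genes. By direction, 7.14% were higher and 35.7% lower, against 17.0% and 21.4% of all genes. The riser, Smap1, lost its call without replicate 1 (0.33) or 3 (0.40). Of the fallers, Acap3 lost its call without replicate 1, 2 or 3, Smap2 without replicate 1 or 2, and Git2 without replicate 1. Gga2 and Asap1 kept theirs when any 1 pair was left out. Gga2, an ARF-dependent clathrin adaptor of the trans-Golgi, fell to 739.8 ± 152 with dexamethasone, against 1661 ± 137 in control (-1.18 ± 0.16, adjusted p = 0.000521 by limma), and Asap1, an ARF GTPase-activating protein, fell by 0.87 ± 0.15. Cyth1, an exchange factor that activates ARF, was the only riser of 7 tested exchange factors (14.3%, against 17.0% of all genes). It averaged 565.7 ± 33.3 with dexamethasone and 252.1 ± 7.5 in control (1.16 ± 0.16, adjusted p = 0.000536 by limma).

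Of 8 Yip family and other Golgi membrane genes, 5 rose (62.5%, against 17.0% of all genes) and 0 fell (limma), and all 5 were Yipf genes. With hybridization control scaling Yipf3 was the only riser and Tmem165 was called lower (-0.64). Yipf3 had signals of 1096, 789.3 and 1029 with dexamethasone, against 484.2, 80.3 and 346.3 in control. Control replicate 2 was below its background level, and the change of 2.02 ± 0.34 (adjusted p = 0.00204 by limma) was 1.38 without replicate 2 and 1.33 with the mean of all its probe sets. Yipf1, Yipf2, Yipf4 and Yipf5 rose by 0.50 to 0.68. The calls of these 4 were lost with hybridization control scaling (0.25 to 0.43), and without replicate 1 for Yipf1 (0.47), Yipf2 (0.53) and Yipf5 (0.38) or without replicate 2 for Yipf4 (0.44). Among 23 genes listed with the tethers, not all of which are tethers themselves, 3 rose (13.04%, against 17.0% of all genes) and 0 fell (limma). Golgb1 (giantin, a golgin that binds COPI vesicles) averaged 521.0 ± 144 with dexamethasone and 303.3 ± 21.2 in control (0.75 ± 0.18, adjusted p = 0.0106 by limma). The call of Golgb1 was lost without replicate 3 (0.56, adjusted p = 0.0670). With hybridization control scaling the split of these 23 genes turned. The calls of Golgb1 (0.50), Nbas (0.45) and Trappc13 (0.27) were lost, and Trappc1, Trappc4, Trappc8, Zw10 and Golm1 were called lower (-0.66 to -0.43).

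Of the 78 genes, 20 had more than 1 probe set. Of 20 tested second probe sets, 8 were called by limma, and 38.4% of all genes were called with their brightest probe set. Of the 8, 3 went in the direction of a called gene (Ap2b1, Arf3 and Bet1) and 0 opposite to one. The other 5 belonged to Copg1, Gosr2, Tmed2 and Arfgap1, whose brightest probe sets did not pass.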

How the data were processed

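The authors deposited a MAS5 signal, a linear intensity, for every probe set on every array; GCOS and MAS5 are the tools named in the submitters' processing notes, and versions and scaling settings are not given in the sources used here. Signals are relative to each array's own total, and MAS5 background subtraction makes low signals noisy. Of 15923 probe sets, 57 controls were left out. Probe sets were named from the platform annotation: 12783 had 1 symbol, 312 had several and were not named, and 2771 were unnamed here. All 78 symbols matched the NCBI gene table of GRCr8 by gene identifier.

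Signals were taken to log2 (4 values of 0 set to 0.1). Probe sets were tested if their mean log2 signal reached the 40th percentile, a signal of 147.6, which left 9520. Treatment was tested in limma 3.58.1 (R 4.3.3; lmFit, then eBayes with an intensity trend), with the replicate pair as a blocking term. The code of the fit was also run on simulated arrays with a built-in pair effect and far fewer changed probe sets than were called here. That run checked the code only and does not bear on the pairing or the calls. The block follows the series' design text, which speaks of 3 pairs. Deviations from the group means correlated at -0.10, 0.11 and 0.21 within pairs 1, 2 and 3. Between arrays of different pairs they correlated at -0.25 to 0.18. Dexamethasone replicate 1 with control replicate 2, at 0.18, lay above pair 2, so the values themselves do not bear out the pairing for pairs 1 and 2. No 2 arrays had more than 47 identical values among 15866.

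Members and lists were chosen with earlier results of these data known. By a stated rule, signals per array were given for the 16 called genes of largest change and for the brightest gene of a role with none, and the 5 largest rises and falls of the wider list were named; the remaining genes illustrate roles. Alternatives were no block, other scalings, filters, variance model, pseudocount and probe set rules, and leaving out each pair.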

Additional observations from a re-analysis of the deposited data

How the results depend on the processing

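Over 12 other settings, 8 of the 20 called coat and ARF genes kept their call in every setting that tested them, 12 lost it in at least 1, and 17 of the 53 that did not pass were called in at least 1; no call turned its direction. With 75th percentile centring 13 genes rose and 6 fell with a median of 0.14, and in the wider list of traffic genes 28 rose with a median of 0.15. With hybridization control scaling 3 rose and 20 fell (median -0.23), and in the wider list 5 rose and 22 fell (median -0.22). Both shift all genes of an array alike; the cause of the array-wide difference was not tested. Quantile normalization put the median of the wider list at 0.081. With no filter on dim probe sets 5 of 78 coat and ARF genes rose, and 1063 of all 10411 genes did. Without 1 replicate pair at a time, which leaves fewer samples, 5 to 6 coat and ARF genes rose and 5 to 8 fell (medians 0.00 to 0.02), and 9 to 14 genes of the wider list rose and 7 to 9 fell (medians 0.02 to 0.06). Of all 7051 genes, 817 to 997 rose and 1065 to 1309 fell in these fits. Without the replicate block 7 coat and ARF genes rose and 12 fell: Sec24d and Ap2s1 lost their calls and Tmed4 gained one (-0.39, adjusted p = 0.0452 by limma). Leaving out the filter ended the calls of Sec16a, Sec24d, Arl3, Arl15, Ap2m1 and Ap3s1. Dropping the intensity trend ended those of Sec13, Sec16a, Arl3, Ap3s1 and the 3 AP-2 genes. Quantile normalization ended those of Ap2s1, Ap3s1 and Arl15, and 75th percentile centring those of Sec13, Arl15, Ap3s1 and the 3 AP-2 genes. With 3 arrays per group and background levels of 51.7 to 115.9, signal over background limits the dim genes: Arl6 and Arl15 each had 1 treated array below background.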
